A study of Mus musculus with 112 samples.

Results

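Embryoid bodies (EBs) lacking the corepressor RCOR1 were compared with wild-type EBs after 6 days of differentiation. The 4 RCOR1 KO EB libraries and the 7 WT EB libraries were chosen by their titles and make up 11 of the 112 RNA-seq libraries of the series. All were derived from V6.5 mouse embryonic stem cells (ESCs), a male line. The mutant cells were clones made by CRISPR/Cas9 with a pair of guides flanking part of the gene, and the study states at least 2 biological replicates from 2 independent clones, but the labels do not say which library came from which clone. Naive ESCs, kept in serum-free medium with MEK and GSK3 inhibitors and LIF, were placed in hanging drops in serum medium without those factors for 6 days. No drug was given. RCOR2 KO EBs (2 libraries), RCOR1/2 double knockout (DKO) EBs (4 libraries), RCOR1 KO ESCs (4 libraries) and WT ESCs (8 libraries) from the same parental line were used for comparison. Nothing in the labels says whether libraries of a group came from separate cultures, so p-values measure the spread between these libraries, which may be technical.

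RCOR1 is also known as CoREST. It is a scaffold that joins the histone demethylase LSD1, encoded by Kdm1a, to the histone deacetylases HDAC1 and HDAC2, and it lets LSD1 act on nucleosomes by removing methyl groups from lysine 4 of histone H3. Mammals have the related scaffolds RCOR2 and RCOR3. CoREST was first described as a partner of REST, the factor that keeps neuronal genes silent in other cells. In EBs, cells leave pluripotency and form a mixture of mesoderm, endoderm and neural cells, so the level of a lineage gene in such a culture depends on both the number of cells of that lineage and the RNA in each cell, and these cannot be told apart in bulk RNA.

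RCOR1 KO EB libraries held 35074517 to 36803957 counts and WT EB libraries 32615341 to 44401097 counts, with 17468 to 17821 genes detected in RCOR1 KO and 17160 to 18758 in WT. The ribosomal precursor Rn45s took 8.06 to 12.01% of counts in RCOR1 KO and 9.33 to 11.99% in WT. WT EB libraries 1 to 3 stood apart: 261 genes had at least 1 CPM (counts scaled to a common library total) in each of them and less than 0.5 CPM in all 8 other WT and RCOR1 KO EB libraries. Of these genes, 73 (28.0%) had an exon overlapping an exon of a gene on the opposite strand, against 2374 (13.2%) of all 17928 genes tested. WT EB 6 and 7 are listed beside the RCOR mutants, and shared with the RCOR1 KO EBs low levels of the intestinal antibody transporter gene Pigr, which had 1.04, 0.987, 2.72 and 2.45 CPM in RCOR1 KO EBs, 1.05 and 11.2 CPM in WT EB 6 and 7, and 0 CPM in WT EB 1 to 5. Comparisons are therefore given with all WT libraries and, where it matters, without WT EB 1 to 3.

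Loss of Rcor1 transcript marked the mutant EBs. Rcor1 lies on chromosome 12 (mm9, 112277577 to 112354113, plus strand). Its level was 12.2, 7.56, 19.4 and 9.17 CPM in the 4 RCOR1 KO EB libraries, against 69.9 to 89.6 CPM (median 82.1) in the 7 WT EB libraries. Every mutant library was far below every WT library. The mean was 12.1 ± 5.23 CPM in RCOR1 KO (SD, n = 4) and 80.2 ± 7.89 CPM in WT (SD, n = 7), so 15.0% of the WT level remained. Rcor1 fell by 2.73 ± 0.20 on the log2 scale (SE; adjusted p = 1.65e-07, edgeR quasi-likelihood test with Benjamini-Hochberg adjustment over all genes), with a 95% interval of -3.16 to -2.30. The counts cover all exons of a gene, so they do not say which part of Rcor1 the remaining reads come from.

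The related scaffolds and the enzymes they hold showed no called difference, within narrow limits. Rcor2, the second CoREST scaffold, had 153, 120, 113 and 130 CPM in RCOR1 KO EBs and 122 to 151 CPM (median 135) in WT EBs. The difference was -0.07 ± 0.15 on the log2 scale (adjusted p = 0.927 by edgeR), and its 95% interval ran from -0.38 to 0.23, which leaves out a doubling of Rcor2. Rcor3 had 21.8, 19.4, 22.3 and 19.2 CPM in RCOR1 KO EBs and 18.5 to 25.7 CPM in WT EBs, with an interval of -0.28 to 0.14. Per kilobase of exon, Rcor1 stood at 2.13 CPM in RCOR1 KO and 14.1 CPM in WT, Rcor2 at 45.2 CPM in RCOR1 KO and 47.5 CPM in WT, and Rcor3 at 4.68 CPM in RCOR1 KO and 4.92 CPM in WT. Rcor2 was the most abundant of the 3 scaffold transcripts in both genotypes.

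Kdm1a, the demethylase itself, had 226, 186, 203 and 210 CPM in RCOR1 KO EBs and 187 to 221 CPM in WT EBs, a log2 difference of 0.02 ± 0.07 with an interval of -0.12 to 0.17. The deacetylase gene Hdac1 had 156, 164, 140 and 144 CPM in RCOR1 KO EBs and 138 to 171 CPM in WT EBs (-0.04 ± 0.07), and Hdac2 had 203, 213, 191 and 187 CPM in RCOR1 KO EBs and 170 to 220 CPM in WT EBs (0.07 ± 0.09). In each case the libraries of both genotypes overlapped. Of the 20 genes listed for LSD1 and CoREST complexes, all tested, Rcor1 alone passed the test. The reader of unmethylated lysine 4 in the complex, Phf21a, differed by -0.24 ± 0.14, the zinc finger subunit Zmym2 by 0.15 ± 0.09, the HMG-box subunit Hmg20b by -0.18 ± 0.11, and Rest by -0.07 ± 0.09 (log2, adjusted p between 0.611 and 0.847).

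**Figure D1:**
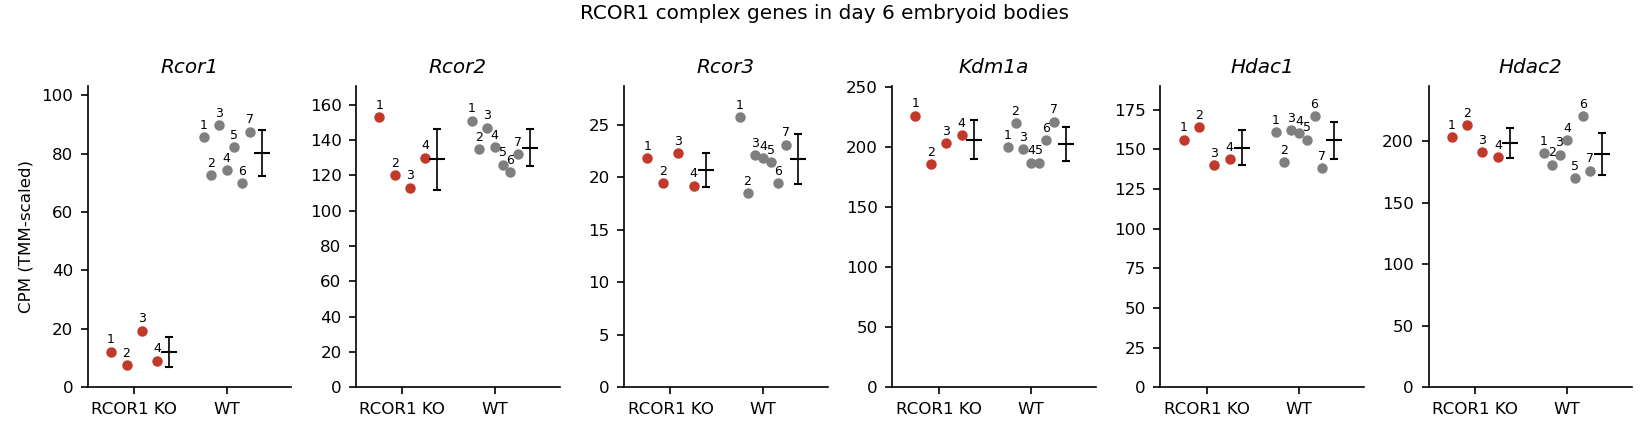
Level of Rcor1, Rcor2, Rcor3, Kdm1a, Hdac1 and Hdac2 in each EB library, in TMM-scaled CPM, with RCOR1 KO to the left of WT in each panel and bars for the mean ± SD. The 4 RCOR1 KO libraries lie between 7.56 and 19.4 CPM for Rcor1, below all 7 WT libraries, and overlap WT for the other 5 genes.

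Across the transcriptome, the question was which genes respond to loss of this scaffold during differentiation. A gene was called when its adjusted p was below 0.01 and its log2 fold change above 1 in either direction. Of 17928 genes tested, 0 were called higher and 1 lower in RCOR1 KO EBs, which is 0.00558% of genes, and that gene was Rcor1. The same was found without WT EB 1 to 3 (1 of 17595 genes, 0.00568%) and against WT EB 6 and 7 alone (1 gene). No gene was called with a term for libraries listed together (Rcor1 adjusted p = 0.0116 by edgeR). That fit also kept only WT EB 6 and 7 and the RCOR mutant EBs, with the sets inferred from the order of listing. In a fit of RCOR1 KO and WT EBs alone without WT EB 1 to 3, no gene was called (Rcor1 adjusted p = 0.0432 by edgeR). Against WT EB 1 to 5 alone, 7 genes were called, 5 higher and 2 lower. With an adjusted p below 0.05 and no minimum fold, Rcor1 was again the single gene. DESeq2 called 30 genes, 2 higher and 28 lower, with all WT libraries, and 1, Rcor1, without WT EB 1 to 3.

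At an unadjusted p below 0.05 there were 1769 genes (9.87%), of which 518 (2.89%) were higher and 1251 (6.98%) lower in RCOR1 KO EBs. Without WT EB 1 to 3 there were 288 (1.64%), 170 (0.966%) higher and 118 (0.671%) lower. Of the 1769 genes, 176 were also below 0.05 without WT EB 1 to 3, 169 of them with the same sign. The libraries of both genotypes did not overlap for 64 genes (0.357%), with RCOR1 KO above WT for 40 (0.223%) and below for 24 (0.134%).

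With the libraries taken as independent, the intervals limited moderate changes for most genes. Libraries of one clone would not be independent, and the labels do not give the clones. Several lineage genes below had wider intervals, such as the mesoderm gene T (95% interval -0.76 to 2.09, log2). Among 13645 genes with a mean of at least 1 CPM in either genotype, 11658 (85.4%) had a 95% interval lying within a 2-fold change in either direction, and the median half-width was 0.307 on the log2 scale.

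**Figure D2:**
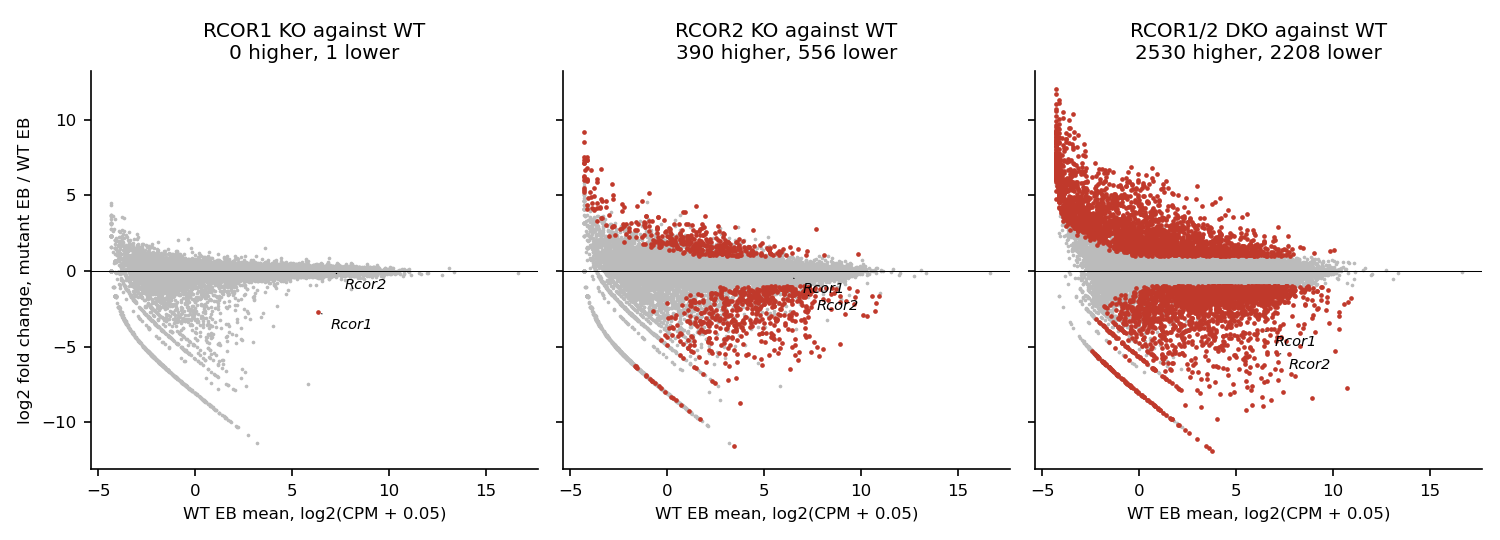
Log2 fold change of each gene against its mean WT EB level (log scale), with RCOR1 KO EBs in the first panel, EBs without RCOR2 in the next and DKO EBs in the last, each against WT EBs and with called genes marked. One gene, Rcor1, is marked for RCOR1 KO, against 946 for RCOR2 KO and 4738 for DKO.

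The pluripotency network was not distinguishable between RCOR1 KO and WT EBs. None of the 14 naive or 11 general pluripotency genes was called or reached an unadjusted p below 0.05 (9.87% of all genes tested did). Their median log2 differences were 0.50 and -0.17 (0.29 and -0.05 without WT EB 1 to 3). Pou5f1, which encodes OCT4, had 13.5, 27.7, 5.76 and 28.6 CPM in RCOR1 KO EBs, against 5.90 to 40.4 CPM (median 24.3) in WT EBs. RCOR1 KO EB 3 lay just under the lowest WT library and the other mutants inside the WT range, and the log2 difference was -0.34 ± 0.48 (95% interval -1.36 to 0.68). Nanog, its partner in the naive state, had 22.8, 41.6, 4.31 and 37.7 CPM in RCOR1 KO EBs and 4.39 to 55.8 CPM (median 26.4) in WT EBs (-0.10 ± 0.56). Esrrb, an orphan nuclear receptor of naive cells, had 3.73, 6.41, 1.22 and 10.9 CPM in RCOR1 KO EBs and 0.278 to 8.05 CPM in WT EBs (0.51 ± 0.61). Zfp42, which encodes REX1, had 1.51, 4.41, 0.264 and 7.89 CPM in RCOR1 KO EBs and 0.222 to 5.36 CPM in WT EBs (0.74 ± 0.61). RCOR1 KO EB 3 was the lowest mutant library for all 4 genes, and WT EB 5 the lowest WT library.

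Mesoderm genes also overlapped between the genotypes. Of 24 early and paraxial mesoderm genes tested, 0 were called, with a median of -0.06. At an unadjusted p below 0.05, 1 was higher, beside 2.89% of all genes tested. T, the brachyury gene of the primitive streak, had 17.5, 129, 66.0 and 123 CPM in RCOR1 KO EBs and 13.7 to 116 CPM (median 32.9) in WT EBs (0.66 ± 0.67). WT EB 6 and 7, at 116 and 112 CPM, lay just below the 2 highest mutant libraries, and the other 5 WT libraries did not exceed 33.1 CPM. Eomes, another T-box factor of the streak, had 147, 77.1, 16.6 and 45.9 CPM in RCOR1 KO EBs and 26.6 to 182 CPM in WT EBs (-0.26 ± 0.69).

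Genes of blood and vessel precursors varied widely within both genotypes. The VEGF receptor gene Kdr, which marks these precursors, had 199, 59.9, 235 and 82.7 CPM in RCOR1 KO EBs, against 34.2 to 293 CPM (median 165) in WT EBs (-0.14 ± 0.53). Tal1, a master factor of blood formation, had 11.1, 3.86, 38.8 and 9.49 CPM in RCOR1 KO EBs and 2.13 to 28.5 CPM in WT EBs (0.41 ± 0.64). The endothelial cadherin gene Cdh5 had 5.59, 1.53, 34.0 and 4.74 CPM in RCOR1 KO EBs and 1.46 to 28.0 CPM in WT EBs (0.27 ± 0.84). RCOR1 KO EB 3 was the highest library of all 11 for Tal1 and Cdh5, and the embryonic globin gene Hbb-bh1 stood at 14.5 CPM there, against 0.0548 to 0.753 CPM in the other 3 mutant libraries and 0 to 6.48 CPM in WT. Of 24 blood genes and 20 endothelial genes tested, 0 were called and 0 had an unadjusted p below 0.05 (9.87% of all genes tested).

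Cardiac genes overlapped between RCOR1 KO and WT EBs, and none was called. Hand1, a factor of heart and extraembryonic mesoderm, had 329, 83.8, 238 and 195 CPM in RCOR1 KO EBs, against 30.9 to 465 CPM (median 321) in WT EBs (-0.34 ± 0.57, 95% interval -1.54 to 0.86). Its paralogue Hand2, needed for the right ventricle, had 84.8, 30.8, 105 and 51.6 CPM in RCOR1 KO EBs and 20.0 to 131 CPM (median 78.1) in WT EBs (-0.22 ± 0.52, 95% interval -1.32 to 0.88). The cardiac and skeletal muscle factor Mef2c had 42.8, 18.6, 80.7 and 32.7 CPM in RCOR1 KO EBs and 17.2 to 112 CPM in WT EBs (-0.27 ± 0.54). Among sarcomere genes, troponin Tnnt2 had 3.82, 1.34, 14.6 and 3.12 CPM in RCOR1 KO EBs and 1.25 to 14.5 CPM in WT EBs (-0.38 ± 0.69), and titin, Ttn, had 34.0, 11.6, 273 and 31.5 CPM in RCOR1 KO EBs and 12.3 to 245 CPM in WT EBs (-0.18 ± 0.79). RCOR1 KO EB 3 was again the highest mutant library and RCOR1 KO EB 2 the lowest for Hand2, Mef2c, Tnnt2 and Ttn. None of 17 cardiac factors or 24 sarcomere and calcium handling genes was called, with list medians of -0.22 and -0.10. At an unadjusted p below 0.05, 0 and 2 of them were lower, beside 6.98% of all genes tested.

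Endoderm genes also overlapped between the genotypes, with 0 of 18 called, 0 at an unadjusted p below 0.05 (9.87% of all genes tested) and a median of -0.08. Sox17, a factor of definitive and extraembryonic endoderm, had 81.8, 45.2, 25.8 and 35.1 CPM in RCOR1 KO EBs and 33.9 to 71.9 CPM in WT EBs (-0.16 ± 0.41). The endoderm pioneer factor Foxa2 had 43.9, 53.3, 40.7 and 56.6 CPM in RCOR1 KO EBs and 28.9 to 60.4 CPM in WT EBs (0.06 ± 0.37). The tight junction gene Cldn6 had 143, 149, 107 and 125 CPM in RCOR1 KO EBs and 118 to 196 CPM in WT EBs (-0.22 ± 0.17). Shh, the secreted morphogen of gut endoderm and notochord, ran from 2.69 to 53.5 CPM in RCOR1 KO EBs and from 0.882 to 73.0 CPM in WT EBs (0.48 ± 0.76). Visceral endoderm products were low to moderate in both genotypes: Ttr, the thyroxine carrier, had 22.6, 2.38, 17.0 and 1.87 CPM in RCOR1 KO EBs and 2.78 to 29.9 CPM in WT EBs, and Hnf4a, a factor that drives such genes, had 26.7, 3.07, 7.37 and 2.93 CPM in RCOR1 KO EBs and 3.91 to 27.7 CPM in WT EBs. RCOR1 KO 2 and 4 were below every WT library for Ttr and Hnf4a. Afp, the fetal albumin-like protein, stood at 0.266 to 1.1 CPM in RCOR1 KO EBs and 0.260 to 2.92 CPM in WT EBs (-0.95 ± 0.65).

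**Figure D3:**
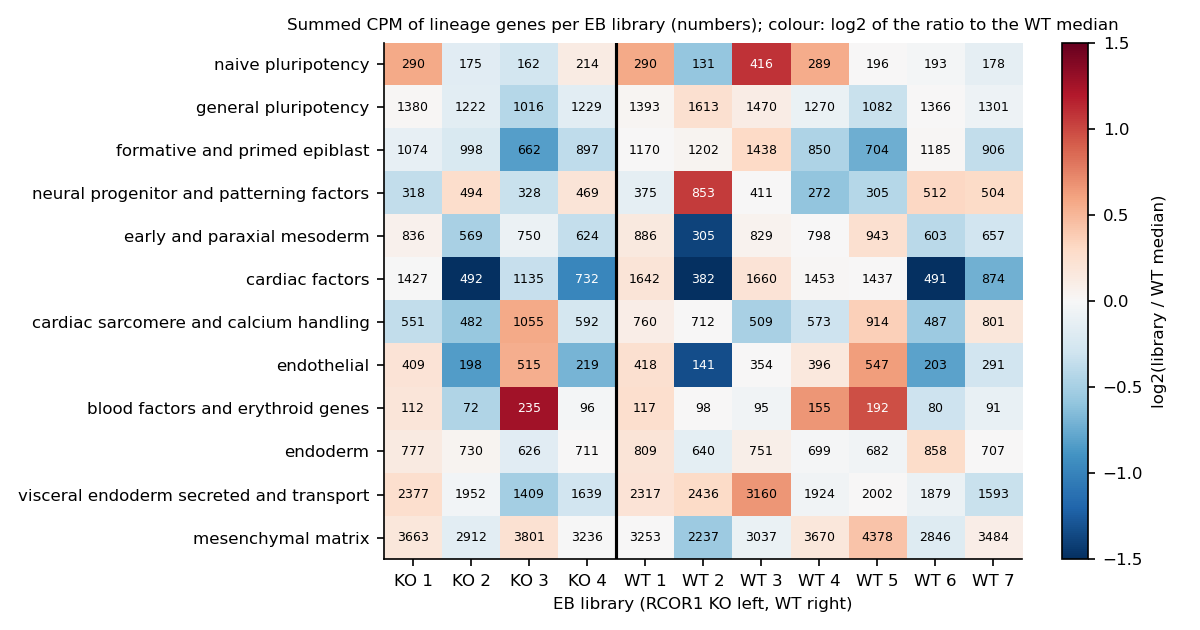
Summed CPM of 12 lineage gene lists (rows) in each EB library (columns, RCOR1 KO 1 to 4 at the left, WT 1 to 7 at the right), with the sum printed in each cell and coloured by its log2 ratio to the WT median. The cardiac factor sum runs from 492 to 1427 CPM in RCOR1 KO and the endothelial sum from 198 to 515 CPM, with RCOR1 KO 1 and 3 above RCOR1 KO 2 and 4 in both rows.

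Neural genes and the targets of REST were examined because CoREST partners REST. Sox1, the earliest neural plate marker, had 8.34, 31.3, 2.7 and 19.2 CPM in RCOR1 KO EBs and 0.556 to 91.3 CPM (median 16.6) in WT EBs (-0.57 ± 0.92). Sox2, shared by pluripotent and neural cells, had 17.8, 38.3, 12.4 and 38 CPM in RCOR1 KO EBs and 7.42 to 111 CPM in WT EBs (-0.51 ± 0.58). WT EB 2 was the highest library for both genes. The progenitor filament gene Nes had 22.9, 39.2, 29.2 and 55.7 CPM in RCOR1 KO EBs and 21.6 to 52.5 CPM in WT EBs (0.06 ± 0.23), and the neurofilament gene Nefl had 2.37, 6.69, 7.45 and 8.63 CPM in RCOR1 KO EBs and 2.97 to 7.87 CPM in WT EBs (0.09 ± 0.28). The POU factor gene Pou3f1 had 8.05, 10.1, 1.85 and 6.58 CPM in RCOR1 KO EBs and 1.28 to 18.8 CPM in WT EBs (-0.61 ± 0.53).

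Of 35 REST target genes tested, 0 were called, and 1 was higher and 3 were lower at an unadjusted p below 0.05. Over all genes tested, 2.89% were higher and 6.98% lower at that threshold, so the counts are not read as a result about these targets. Their median log2 difference was -0.12. Without WT EB 1 to 3 it was 0.04, and 0 were below 0.05, against 1.64% of all genes. Stmn2, a growth cone protein gene, had 14.2, 30.8, 7.03 and 20.9 CPM in RCOR1 KO EBs and 8.68 to 32.0 CPM in WT EBs (0.04 ± 0.39). The synaptic vesicle gene Syn1 had 1.30, 1.86, 0.714 and 0.719 CPM in RCOR1 KO EBs, against 5.06, 3.96 and 5.84 CPM in WT EB 1 to 3 and 0.501 to 1.57 CPM in the other 4 WT EB libraries. Its log2 difference was -1.26 ± 0.52 with all WT libraries and 0.09 without WT EB 1 to 3. Sez6, a neuronal membrane protein gene, differed by -1.59 ± 0.58 (adjusted p = 0.382) and by -0.76 without WT EB 1 to 3, with 18.8 CPM in WT EB 2 and no more than 5.61 CPM in any other RCOR1 KO or WT EB library. Rnf213 and Psap, which the study also followed, differed little. Rnf213, a large ubiquitin ligase gene, had 94.8, 93.7, 82.5 and 96.1 CPM in RCOR1 KO EBs and 64.8 to 111 CPM in WT EBs (-0.03 ± 0.15), and the lysosomal prosaposin gene Psap had 106, 104, 117 and 127 CPM in RCOR1 KO EBs and 103 to 136 CPM in WT EBs (-0.04 ± 0.12).

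In all, 49 gene lists holding 909 distinct tested genes were examined, covering lineages, signalling pathways, stress responses, metabolism and chromatin. The complex list, through Rcor1, was the single list with a called gene. The median log2 difference lay within 0.2 of 0 for 38 lists, and for 43 lists without WT EB 1 to 3, beside a median of -0.02 over all genes tested.

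The genes with the smallest p among those not called show the size of what might differ (adjusted p = 0.375 for each of the 10 in either direction). Genes ranked by p tend to have separate libraries, so a lack of overlap among them adds no support. Over all 17928 genes tested, every RCOR1 KO library was above every WT library for 40 (0.223%). Sfmbt2, a Polycomb group gene imprinted in mouse extraembryonic tissue, had 33.2, 42.7, 31.0 and 49.6 CPM in RCOR1 KO EBs, against 12.6 to 29.9 CPM (median 22.1) in WT EBs. Every mutant library was above every WT library, by a log2 difference of 0.85 ± 0.22 (0.62 without WT EB 1 to 3). In RCOR2 KO EBs, Sfmbt2 stood at 27.8 and 59.4 CPM, and the RCOR1 KO minus RCOR2 KO difference was -0.16 ± 0.30 (adjusted p = 0.803). In DKO EBs, Sfmbt2 stood at 269 to 299 CPM, and the RCOR1 KO minus DKO difference was -2.84 ± 0.26 (log2, adjusted p = 2.54e-08 by edgeR). In ESCs the RCOR1 KO to WT difference for Sfmbt2 was 0.02 ± 0.18, and the EB and ESC responses differed by 0.83 ± 0.26 (adjusted p = 0.823).

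Lrch2, a leucine-rich repeat protein gene, had 46.6, 52.2, 47.8 and 48.6 CPM in RCOR1 KO EBs and 31.1 to 42.0 CPM in WT EBs (0.42 ± 0.11). Fam126b, whose protein is part of the complex that recruits a phosphatidylinositol kinase to the plasma membrane, had 50.0, 56.0, 49.6 and 46.6 CPM in RCOR1 KO EBs and 36.6 to 46.1 CPM in WT EBs (0.30 ± 0.07). For both genes the genotypes did not overlap (RCOR1 KO was wholly above WT for 0.223% of all genes tested). The differences were 0.34 and 0.24 without WT EB 1 to 3. Bche, the butyrylcholinesterase gene, had 7.53, 7.21, 12.3 and 5.49 CPM in RCOR1 KO EBs and 2.08 to 6.98 CPM in WT EBs (0.99 ± 0.26, and 0.66 without WT EB 1 to 3). Dmxl2, a regulator of the vacuolar proton pump, had 46.5, 63.3, 61.5 and 61.1 CPM in RCOR1 KO EBs and 27.5 to 52.4 CPM in WT EBs (0.49 ± 0.14, and 0.33 without WT EB 1 to 3).

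On the lower side, Cuta had 15.9, 16.6, 16.7 and 15.6 CPM in RCOR1 KO EBs and 16.0 to 25.3 CPM in WT EBs (-0.40 ± 0.11, and -0.26 without WT EB 1 to 3). WT EB 7 overlapped the mutant libraries. Larger fitted differences came from WT EB 1 to 3. G530011O06Rik, a noncoding gene on the X chromosome, had 0.318, 0.356, 0.370 and 0.213 CPM in RCOR1 KO EBs, against 140, 95.3 and 163 CPM in WT EB 1 to 3 and 0.114 to 0.301 CPM in WT EB 4 to 7. The retrotransposon-derived gene Rtl1 had 1.91, 0.521, 1.96 and 0.959 CPM in RCOR1 KO EBs, against 38.5, 24.5 and 40 CPM in WT EB 1 to 3 and 1.41 to 4.25 CPM in WT EB 4 to 7, and its log2 difference was -3.62 ± 0.89 with all WT libraries and -1.13 without WT EB 1 to 3. Rtl1 is transcribed opposite to a maternally expressed RNA, and reads of overlapping genes may be assigned uncertainly.

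WT EB 1 to 3 also differed from the RCOR1 KO EBs along a whole chromosome. Over 502 chromosome 6 genes with a mean of at least 5 CPM, the median log2 ratio to the WT mean was 0.187, 0.161, 0.140 and 0.201 in RCOR1 KO EB 1 to 4, against -0.163, -0.208 and -0.162 in WT EB 1 to 3 and 0.157, 0.135, 0.143 and 0.120 in WT EB 4 to 7. WT EB 1 to 3 were low, and the other WT EBs sat with the RCOR1 KO EBs. RCOR2 KO EBs, at -0.215 and -0.189, and DKO EBs, at -0.13 to -0.0955, were also low. The RCOR1 KO minus WT difference was 0.169 (two-sided exact permutation test, p = 0.0333, or 0.255 after adjustment over 20 chromosomes, where the smallest p possible is 0.00303). WT EB 1 to 3 and WT EB 4 to 7 lay apart here, so the libraries are not exchangeable and this p is a description. Of 517 chromosome 6 genes, 447 (86.5%) had a positive log2 fold change, against 47.6% of 10385 genes elsewhere. These genes were measured in the same libraries, so they are not independent. The median over chromosome 6 genes was 0.15 with all WT libraries and 0.016 without WT EB 1 to 3. It was spread along the chromosome, at 0.144, 0.116, 0.176 and 0.156 in 4 consecutive sets of genes of like number. Kdm5a, which encodes another lysine 4 demethylase and lies on chromosome 6, had 342, 359, 391 and 351 CPM in RCOR1 KO EBs, against 220, 206 and 220 CPM in WT EB 1 to 3 and 333 to 338 CPM in WT EB 4 to 7. DNA copy number was not measured.

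The 4 RCOR1 KO libraries were not alike for a set of imprinted and sex-linked genes, picked here after their values were seen. H19, a maternally expressed noncoding RNA, had 3.91, 495, 9.78 and 360 CPM in RCOR1 KO EB 1 to 4, against 80.1 to 398 CPM (median 122) in WT EBs. RCOR1 KO 1 and 3 were below every WT library, and RCOR1 KO 2 was above all of them. The amino acid transporter gene Slc38a4, expressed from the paternal allele in mouse, had 506, 49.9, 252 and 37.3 CPM in RCOR1 KO EBs and 26.7 to 210 CPM (median 112) in WT EBs, high in RCOR1 KO 1 and 3. Igf2, the growth factor next to H19, had 1390, 629, 2240 and 976 CPM in RCOR1 KO EBs and 932 to 2530 CPM in WT EBs, and was also higher in RCOR1 KO 1 and 3. The mean difference between genotypes was 0.07 ± 0.80 for H19, 0.82 ± 0.53 for Slc38a4 and -0.37 ± 0.33 for Igf2 on the log2 scale.

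Y-linked genes paired the libraries the same way. Eif2s3y, which encodes a translation initiation factor subunit, had 9.52, 63.7, 11.3 and 53.9 CPM in RCOR1 KO EBs, against 8.77 to 14.6 CPM (median 12.0) in WT EBs. Uty, a histone demethylase-related gene, had 57.1, 136, 63.5 and 106 CPM in RCOR1 KO EBs and 41.9 to 74.1 CPM in WT EBs, and the helicase gene Ddx3y had 20.8, 63.8, 26.2 and 58.8 CPM in RCOR1 KO EBs and 19.7 to 46.9 CPM in WT EBs. RCOR1 KO 2 and 4 were above all WT libraries for these 3 genes, and RCOR1 KO 1 and 3 lay within the WT range. X-linked Xlr3a is of a clustered family whose copies may share reads. It had 0.232, 6.58, 0.211 and 5.54 CPM in RCOR1 KO EBs and 0.417 to 1.33 CPM in WT EBs. High levels were not particular to RCOR1 KO 2 and 4. DKO EBs had 59.0 to 95.6 CPM for Eif2s3y, 80.8 to 143 for Uty, 68.0 to 105 for Ddx3y and 31.3 to 45.9 for Xlr3a. RCOR2 KO EBs had 13.2 and 15.6 CPM for Eif2s3y.

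The starting RCOR1 KO ESCs showed the same split for the sex-linked genes. Eif2s3y had 11.4, 47.7, 12.0 and 49.4 CPM in RCOR1 KO ESC 1 to 4 and 9.52 to 14.8 CPM in WT ESCs. Xlr3a had 2.28, 16.4, 2.37 and 15.9 CPM in RCOR1 KO ESCs and 3.41 to 11.3 CPM in WT ESCs, and Slc38a4 had 85.1, 15.6, 112 and 24.5 CPM in RCOR1 KO ESCs and 9.89 to 72.7 CPM in WT ESCs. H19 did not exceed 2.00 CPM in any of these ESC libraries. Whether the ESC and EB libraries of one number share a clone is not given in the labels.

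**Figure D4:**
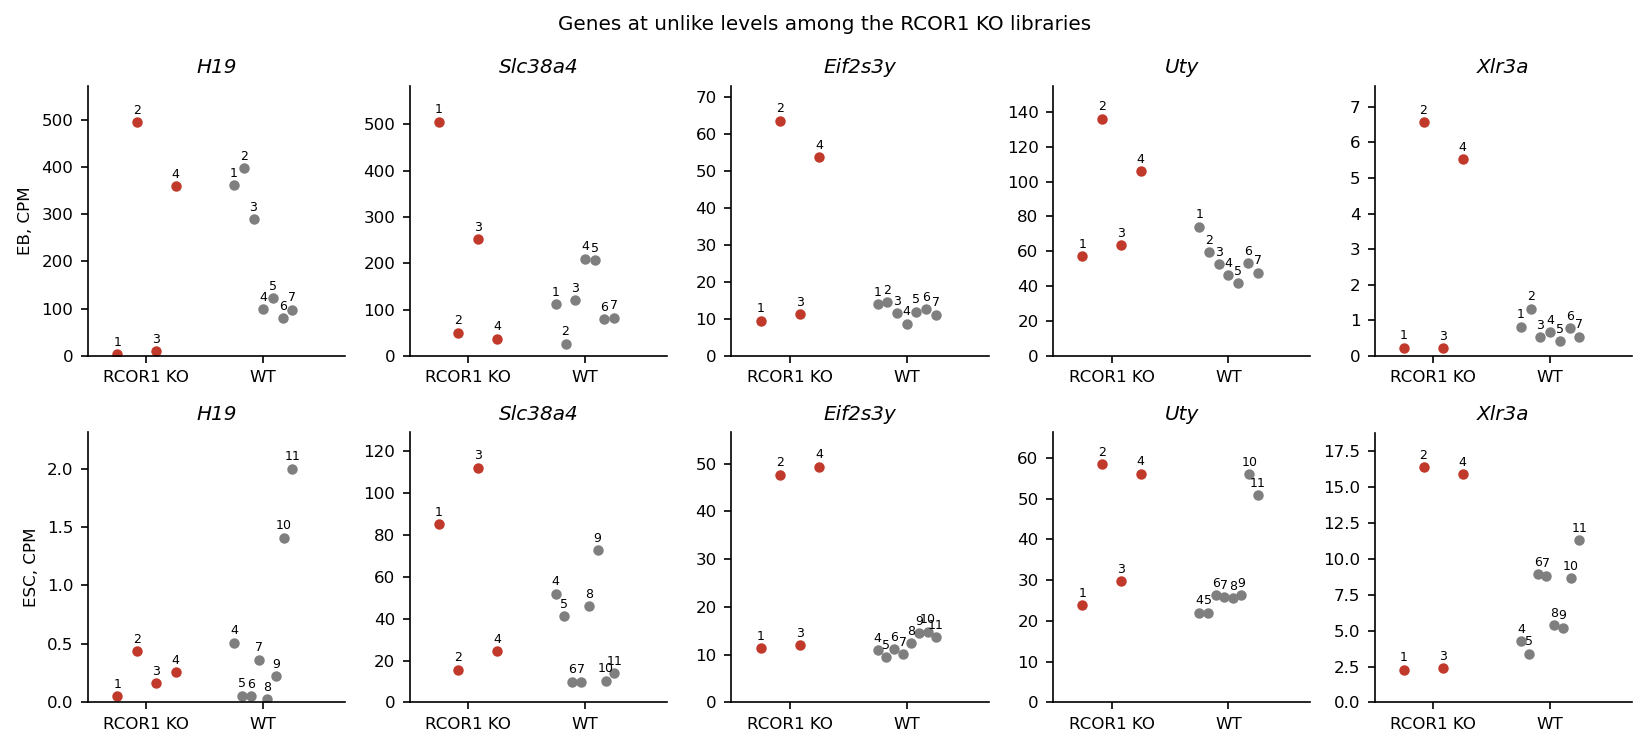
Level of H19, Slc38a4, Eif2s3y, Uty and Xlr3a in each library, in CPM, in EBs (top row) and ESCs (bottom row), with RCOR1 KO left of WT. For Eif2s3y, RCOR1 KO libraries 2 and 4 lie at 53.9 to 63.7 CPM in EBs and 47.7 to 49.4 CPM in ESCs, above all WT libraries, while 1 and 3 lie at 9.52 to 12.0 CPM.

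Over all 10762 genes with a mean of at least 5 CPM, the deviations of the RCOR1 KO EB libraries from their group mean had a correlation across genes of 0.36 for libraries 2 and 4, -0.21 for 1 and 3, and -0.68 to -0.27 for the other 4 pairs. These genes are not independent, and deviations from a shared mean tend to be negative. Of 10760 genes, 161 differed by more than 4-fold between the highest and lowest RCOR1 KO EB library. For the 7 WT EB libraries the count was 400. A range over 7 libraries tends to be wider than over 4, and the 7 include WT EB 1 to 3, so these counts do not compare the spread of the genotypes.

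The next comparison asked how the response to loss of RCOR1 differs from that to loss of RCOR2 or of both scaffolds. Directly compared, RCOR1 KO EBs had 449 genes higher (2.5%) and 259 lower (1.44%) than RCOR2 KO EBs (708 of 17928, 3.95%), and 1968 higher (11%) and 2289 lower (12.8%) than DKO EBs (4257, 23.7%). Against the shared WT EBs, 946 genes were called in RCOR2 KO EBs (5.28%) and 4738 in DKO EBs (26.4%). Genes called higher in RCOR2 KO EBs (390, 2.18%) had a median log2 difference of 1.85 in RCOR2 KO EBs and 0.04 in RCOR1 KO EBs (0.15 without WT EB 1 to 3), and those called lower (556, 3.1%) had -2.45 in RCOR2 KO EBs and -0.07 in RCOR1 KO EBs (-0.08 without WT EB 1 to 3). Of these, 217 (55.6%) and 423 (76.1%) were also called in the direct comparison of RCOR1 KO with RCOR2 KO EBs, which uses the same RCOR2 KO libraries. Chromosome 6 genes were shifted here too, with a median RCOR1 KO minus RCOR2 KO difference of 0.348, against 0.0029 elsewhere (log2). The median RCOR1 KO minus DKO difference was 0.258 on chromosome 6, against 0.0808 elsewhere. The part of these shifts in the calls was not tested. RCOR2 KO EBs had 2 libraries, and the count of 708 was 158 without RCOR2 KO EB 2 and 422 without RCOR2 KO EB 1.

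The targeted genes separated the mutants. Rcor1 had 52.3 and 70.0 CPM in RCOR2 KO EBs and 4.68 to 6.99 CPM in DKO EBs, and the log2 difference of RCOR1 KO EBs was -2.34 ± 0.24 from RCOR2 KO EBs and 1.16 ± 0.21 from DKO EBs (adjusted p = 4.36e-06 and 0.000113 by edgeR). Rcor2 had 51.2 and 43.5 CPM in RCOR2 KO EBs and 2.15 to 5.19 CPM in DKO EBs, and RCOR1 KO EBs were higher by 1.45 ± 0.22 and 5.31 ± 0.20 (adjusted p = 0.000175 and 5.40e-14).

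Cardiac and mesoderm factors were among the genes higher in RCOR1 KO EBs. Of 17 cardiac factors, 12 were higher and 0 lower than in RCOR2 KO EBs, and 15 higher and 0 lower than in DKO EBs. Over all genes tested, 2.5% were higher and 1.44% lower than in RCOR2 KO EBs. Against DKO EBs the shares were 11% higher and 12.8% lower. Hand2 stood at 30.8 to 105 CPM in RCOR1 KO EBs, 1.73 and 0.0551 CPM in RCOR2 KO EBs, 0.168 to 0.286 CPM in DKO EBs and 20.0 to 131 CPM in WT EBs. The fitted difference was 6.26 from RCOR2 KO and 8.14 from DKO EBs (log2), and its size rests on values near 0 in those mutants. Of 24 mesoderm genes, 6 were higher and 0 lower than in RCOR2 KO EBs, and 15 higher and 1 lower than in DKO EBs. Members near 0 in RCOR2 KO and DKO EBs, such as Hand2 and Foxc2, passed the filter through the groups where they are higher. These counts are therefore a description, and no test is given for Hand2 and Foxc2. The forkhead gene Foxc2, a factor of paraxial mesoderm, had 2.84, 14.9, 15.5 and 20.3 CPM in RCOR1 KO EBs. It had 0.115 and 0.0551 CPM in RCOR2 KO EBs, 0.0559 to 0.302 CPM in DKO EBs and 1.56 to 26.4 CPM in WT EBs. Its fitted differences were 7.25 from RCOR2 KO and 6.09 from DKO EBs (log2), and their size rests on values near 0 in those mutants.

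Of 20 endothelial genes, 2 were higher and 0 lower in RCOR1 KO than in RCOR2 KO EBs (2.5% and 1.44% of all genes). Against DKO EBs, 3 were higher and 5 lower (11% and 12.8% of all genes). Aplnr, Nrp1, Hlx and Shh were picked for their size after the values were seen, so they are given with no test. Aplnr, the apelin receptor of early mesoderm, had 88.4, 76.0, 97.9 and 104 CPM in RCOR1 KO EBs. It had 18.3 and 3.14 CPM in RCOR2 KO EBs, 0.0573 to 0.325 CPM in DKO EBs and 26.4 to 115 CPM in WT EBs. Its fitted differences were 3.10 from RCOR2 KO and 9.09 from DKO EBs (log2). Nrp1, a co-receptor for VEGF and semaphorins, had 728, 250, 603 and 341 CPM in RCOR1 KO EBs. It had 22.0 and 11.7 CPM in RCOR2 KO EBs, 1.20 to 2.00 CPM in DKO EBs and 104 to 721 CPM in WT EBs. Its fitted differences were 4.83 from RCOR2 KO and 8.38 from DKO EBs (log2). The homeobox gene Hlx, active in visceral mesenchyme, had 10.5, 1.86, 11.8 and 6.42 CPM in RCOR1 KO EBs. It had 0.231 and 0 CPM in RCOR2 KO EBs, 0.229 to 0.585 CPM in DKO EBs and 1.5 to 17.4 CPM in WT EBs. Its fitted differences were 6.03 from RCOR2 KO and 4.39 from DKO EBs (log2), and their size rests on values near 0 in those mutants. Shh had 2.69 to 53.5 CPM in RCOR1 KO EBs, 0.692 and 0.0551 CPM in RCOR2 KO EBs and 0 to 0.172 CPM in DKO EBs. Its fitted differences were 6.59 from RCOR2 KO and 8.61 from DKO EBs (log2), and their size rests on values near 0 in those mutants.

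Usp26 and Mael, of the germline and meiosis list, were near 0 in RCOR1 KO and WT EBs. They passed the filter on low counts only through groups where they are high, so their values are given with no test. Usp26, an X-linked ubiquitin protease gene of the testis, had 0.0579, 0.110, 0 and 0.0533 CPM in RCOR1 KO EBs, 2.34 and 7.88 CPM in RCOR2 KO EBs, 57.6 to 75.5 CPM in DKO EBs and 0 to 0.183 CPM in WT EBs. Mael, a component of the piRNA pathway that silences transposons in germ cells, had 0, 0, 0.106 and 0.0799 CPM in RCOR1 KO EBs, 0.577 and 3.47 CPM in RCOR2 KO EBs, 10.5 to 12.7 CPM in DKO EBs and 0 to 0.0913 CPM in WT EBs. RCOR1 KO EBs sat with WT EBs at or near the limit of detection for both genes.

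**Figure D5:**
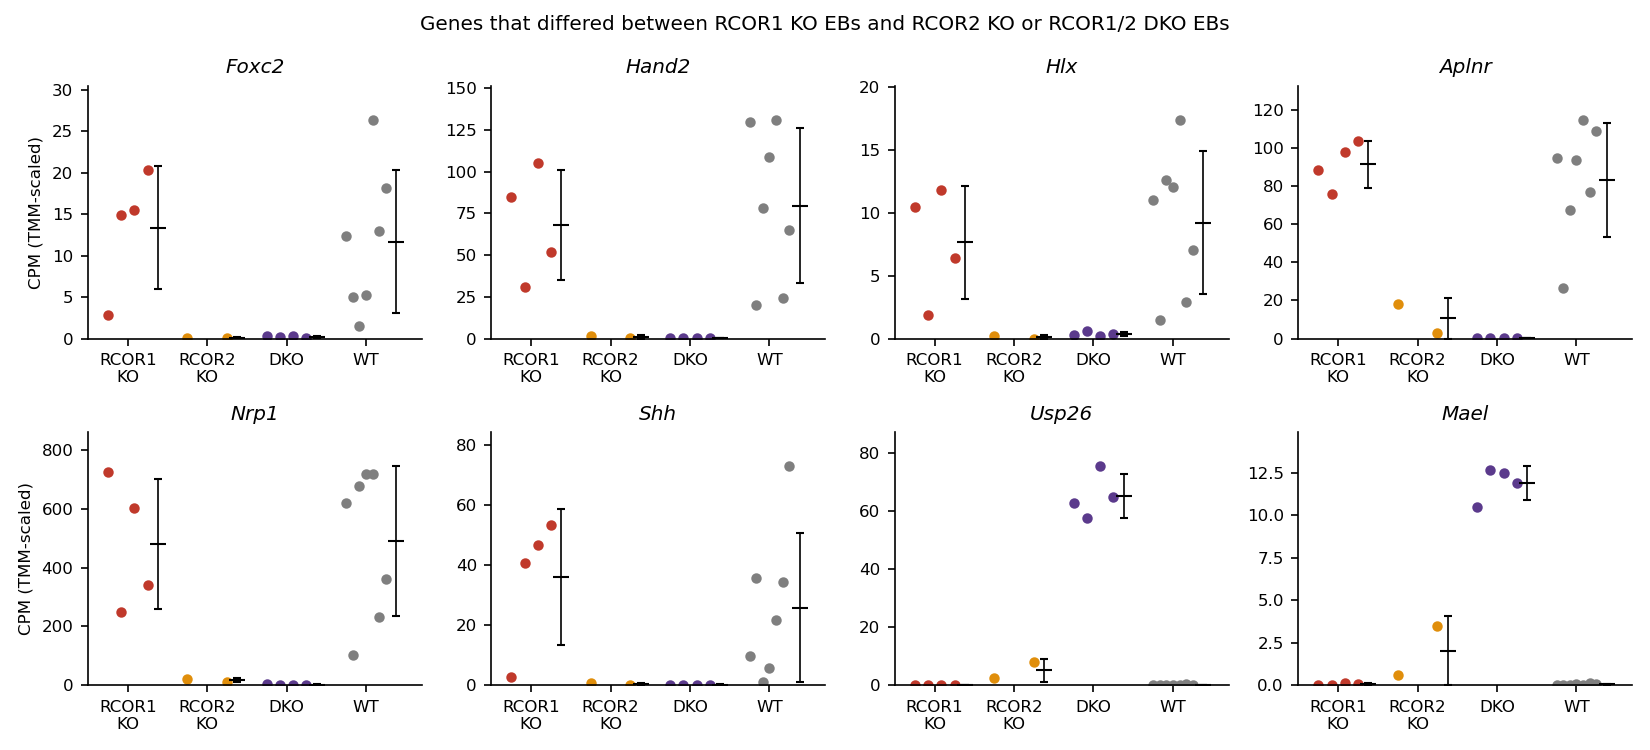
Level of Foxc2, Hand2, Hlx, Aplnr, Nrp1, Shh, Usp26 and Mael in each EB library, in CPM, with RCOR1 KO at the left of each panel, then EBs without RCOR2, then DKO, and WT at the right, and bars for the mean ± SD. RCOR1 KO libraries overlap WT libraries in every panel, and Hand2 reaches no more than 1.73 CPM in RCOR2 KO and 0.286 CPM in DKO.

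The last comparison asked whether the RCOR1 KO response changes between naive ESCs and EBs. In ESCs, Rcor1 had 7.46, 5.09, 11.7 and 7.13 CPM in RCOR1 KO, against 48.0 to 59.8 CPM (median 53) in 8 WT libraries, a log2 difference of -2.76 ± 0.22 (adjusted p = 1.13e-07), and Rcor1 was the single gene called among 16905 tested (0.00592%). The order of the 4 mutant libraries by Rcor1 was the same in both states, with library 2 the lowest and 3 the highest. The EB and ESC responses of Rcor1 differed by 0.04 ± 0.27. Of 16905 genes, 0 (0%) had a response that differed between EBs and ESCs by the call rule in edgeR. At an unadjusted p below 0.05 there were 1022 (6.05%), and DESeq2 called 5. WT ESC 6, 7, 10 and 11 shared traits of WT EB 1 to 3. G530011O06Rik had 52.7, 61.2, 99.3 and 97.5 CPM in them and 0 to 0.694 CPM in the other WT ESCs. Their chromosome 6 medians (log2 ratio to the WT ESC mean) were -0.0675, -0.0665, -0.211 and -0.186, against 0.109 to 0.153 in the others. With WT ESC 8 and 9 and WT EB 6 and 7 as the only controls, 0 of 16477 genes were called. Rcor2 had 121, 140, 118 and 126 CPM in RCOR1 KO ESCs, against 89.6 to 108 CPM in WT ESCs. Each mutant ESC library was above each WT ESC library, but the difference of 0.31 ± 0.08 was not called (adjusted p = 0.201), and that between EB and ESC responses was -0.37 ± 0.11 (adjusted p = 0.823).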

How the data were processed

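RNA was rRNA-depleted and made into strand-specific paired-end libraries. The authors aligned reads to mm9 and deposited featureCounts counts for 25209 genes, used here as deposited (tools named in the submitters' processing notes include STAR 2.7.9a, Picard 2.25.5 and deepTools 3.5.1). Counts came mostly in even numbers (74.0 to 83.3% of counts from 2 to 39), so mates of a pair may have been counted separately. Data were analysed in R 4.3.3 with edgeR 4.0.16 (TMM, filterByExpr by group, robust quasi-likelihood F tests) on all 23 untreated EB libraries, with LSD1 KO and LSD1 CI EBs (LSD1 CI, catalytically inactive) adding to the estimate of spread. ESC comparisons used a separate fit with WT ESC 4 to 11. WT ESC 1 to 3 are known from earlier results to have been aligned or counted differently. The RCOR1 KO to WT ESC comparison was not run without WT ESC 6, 7, 10 and 11. CPM were TMM-scaled, with ESC values from that separate fit. Calls required adjusted p below 0.01 and log2 fold change beyond 1. SE is the log2 fold change divided by the root of F, and intervals use 17 residual degrees of freedom (14 without WT EB 1 to 3). DESeq2 1.42.0, other filters, scalings and left-out libraries were alternatives. Code was tested on simulated data. Members, gene lists and tests were chosen with earlier results of these data known. Named genes were the complex genes, called genes, the 10 smallest p each way among uncalled genes at 1 CPM or more, up to 4 per list, the study's genes, and list members by role. Others are said to be picked after their values were seen. No sample was a duplicate of another. Replicate numbers were not used to pair libraries in the main fit. Some of the genes so named are not reported here.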

Additional observations from a re-analysis of the deposited data

Results flagged for a closer look

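Among 68 genes named for RCOR1 KO against WT EBs, 134 groups of libraries were screened for a single library far from the rest of its group, and 11 were found. Chance alone gives about 1 in 20 such groups, and these genes are not independent. In RCOR1 KO EB 3, Ttn stood at 273 CPM (11.6 to 34.0 CPM in the other 3), Cdh5 at 34.0 CPM (1.53 to 5.59) and Hbb-bh1 at 14.5 CPM (0.0548 to 0.753). RCOR1 KO EB 1 was high for the complex subunit gene Hmg20b, at 43.8 CPM (32.3 to 33.3), and low for Dmxl2, at 46.5 CPM (61.1 to 63.3). RCOR1 KO EB 2 was low for Mta1, a subunit of another HDAC1/2 complex, at 146 CPM (165 to 167). Among WT EBs, library 2 was high for the neural genes Sox2, at 111 CPM (7.42 to 38.3 in the other 6), Sox1, at 91.3 CPM (0.556 to 24.8), and Sez6, at 18.8 CPM (1.00 to 5.61), and library 5 was high for Cdh5, at 28.0 CPM (1.46 to 12.9), and Hbb-bh1, at 6.48 CPM (0 to 2.5).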

How the results depend on the processing

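Rcor1 was lower in RCOR1 KO EBs under every alternative run, by -3.07 to -2.56 (log2), and was called in all but 2. The number of genes called between RCOR1 KO and WT EBs was 1 in edgeR except that it was 7 (5 higher, 2 lower) with WT EB 1 to 5 only, 0 with a term for libraries listed together (Rcor1 adjusted p = 0.0116) and 0 in a fit of the 2 groups alone without WT EB 1 to 3 (0.0432), which was chosen after seeing the data, as was every setting without those libraries. DESeq2 called 30. Leaving out 1 library at a time gave 1 to 1. Against RCOR2 KO EBs (708), DESeq2 called 1256, a fit of the 2 groups 366, the listing term 1127, and leaving out 1 library 158 to 653. Against DKO EBs (4257) all counts were within 1.5 times, and leaving out 1 library gave 3752 to 4049. For EB against ESC responses (0), DESeq2 called 5, and leaving out 1 library gave 0 to 0. The causes were not tested.

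Same-numbered RCOR1 KO and WT EB libraries deviated together for numbers 1 and 2 and oppositely for 3 and 4 (r = 0.185, 0.458, -0.247 and -0.204). With DKO EBs the values were 0.0793, 0.371, 0.165 and 0.071. The labels do not give a pairing, so the main fit did not use the numbers. With the replicate block, 1 gene was called against WT (Rcor1, -2.83, adjusted p = 0.00924), 1273 against RCOR2 KO EBs, 4101 against DKO EBs and 0 between EB and ESC responses. The median 95% interval half-width was 1.72 (log2) for 4223 genes with a mean below 1 CPM in both RCOR1 KO and WT EBs, against 0.307 for the other 13645.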

Other observations

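With WT EB 1 to 5 as the only controls, Pigr, Clca1, Lypd8, Slc26a3 and Muc3 were called higher in RCOR1 KO EBs and Lars2 lower. These genes were found after the values were seen, and Pigr, Muc3 and Lypd8 were at or near 0 CPM in WT EB 1 to 5. The calls are therefore a description, and WT EB 6 and 7 were not tested against WT EB 1 to 5. Pigr, the transporter of secretory antibodies, had 1.04, 0.987, 2.72 and 2.45 CPM in RCOR1 KO EBs, 1.05 and 11.2 CPM in WT EB 6 and 7, and 0 CPM in WT EB 1 to 5. Muc3, a membrane mucin gene, had 1.62, 1.43, 2.27 and 2.45 CPM in RCOR1 KO EBs, 1.37 and 8.26 CPM in WT EB 6 and 7, and 0 to 0.0483 CPM in WT EB 1 to 5. Lypd8, of colon epithelium, had 1.68, 1.97, 4.07 and 3.84 CPM in RCOR1 KO EBs, 1.51 and 13.5 CPM in WT EB 6 and 7, and 0 CPM in WT EB 1 to 5. WT EB 7 was the highest of these libraries for all 3 genes. Lars2, the mitochondrial leucyl-tRNA synthetase gene, had 123, 87.3, 134 and 112 CPM in RCOR1 KO EBs, 70.3 and 114 CPM in WT EB 6 and 7, and 230 to 502 CPM in WT EB 1 to 5.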
